A study of Toxocara canis with 2 samples.

Results

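The ABA-1 type polyproteins of Toxocara canis, the roundworm of dogs, were represented by 3 unigenes (assembled transcripts), named Unigene8950_All, Unigene4744_All and Unigene23209_All in the files, out of 70267 with at least 1 fragment in either library. They were taken as the unigenes whose best protein match in Nr or Swiss-Prot was TBA-1, the Toxocara protein of this family, or polyprotein ABA-1, its counterpart in Ascaris. The letters ABA-1 or TBA-1 occurred in 4 annotated unigenes. The fourth, Unigene41224, carried TBA-1 as the Caenorhabditis name of an alpha tubulin, had a tubulin alpha-8 chain as its Swiss-Prot match, and was left out. The libraries came from the whole body of an adult female and an adult male worm, both of the strain labelled Rongchang, with 1 library per sex and no treatment named in the labels. The female library held 19.8 M fragments and the male library 18.4 M. Without replicates no test was run, and every interval below is a 95% counting interval, blind to how much worms or library preparations vary.

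Nematode polyprotein allergens are a family of lipid-binding proteins known from nematodes. The gene encodes a long precursor built of similar units in tandem, and proteases cut the precursor into small helical proteins that each bind fatty acids and retinol. In Ascaris the product is abundant in the fluid of the body cavity, is released by the parasite and is a target of IgE antibodies in infected hosts. Other nematode lipid carriers include the cytosolic fatty acid-binding proteins, acyl-CoA-binding proteins that carry activated fatty acids, and the large lipid transfer proteins, among them vitellogenin, which load lipid for transport and yolk.

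The 3 unigenes differed in how firmly their names rested on the annotation. In the authors' deposited table Unigene8950, of 400 bases, matched the TBA-1 precursor of Toxocara canis in Nr with a score of 259.2 (expect value 4e-68) and ABA-1 of Ascaris suum in Swiss-Prot with a score of 236 (1e-62). Unigene4744, of 643 bases, matched a partial Ascaris allergen in Nr with a score of 83.6 (7e-15) and ABA-1 with a score of 152 (6e-37) in that deposited table. At the nucleotide level the authors' deposited table gave both the same best match, a partial TBA-1 precursor mRNA of Toxocara canis, with scores of 751 for Unigene8950 and 817 for Unigene4744. Unigene23209, of 2255 bases, had ABA-1 as its Swiss-Prot match with a score of 375 (3e-103) in the deposited table, the highest Swiss-Prot score of the 3. Its Nr match there was a hypothetical protein of Brugia malayi with a score of 79.3 (9e-13), and the authors' deposited table named no nucleotide match for it. Its COG match in that table was an ATPase of DNA repair (score 73.9). The name of Unigene23209 therefore rests on 1 database. Unigene8950 was shorter than the median unigene of 543 bases, and 87.0% of all unigenes were shorter than Unigene23209.

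All 3 unigenes were higher in the female library, by 3.0-fold to 8.02-fold, and in both libraries they stood in the same order of level. Levels are given as FPKM, which scales fragments to unigene length and to the library total. Unigene8950_All (Unigene8950 for short) stood at 20594 FPKM (20494 to 20694) in the female library and 4008 FPKM (3962 to 4054) in the male library, on 162985 and 29437 fragments. It was the unigene of rank 2 by FPKM in the female library and of rank 20 in the male library. By fragments, without scaling to its 400 bases, it had rank 7 in the female and rank 75 in the male library. The female level was 5.14-fold the male level (5.08 to 5.20).

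Unigene4744_All stood at 1069 FPKM (1051 to 1087) in the female library and 356 FPKM (346 to 367) in the male library, on 13604 and 4207 fragments. It had rank 75 by FPKM among the 58435 unigenes seen in the female library and rank 326 among the 64618 seen in the male library. Its difference was the smallest of the set, at 3.0-fold (2.90 to 3.11). Unigene23209_All stood at 455 FPKM (449 to 461) in the female library and 56.7 FPKM (54.5 to 59.1) in the male library, on 20308 and 2349 fragments. It had rank 211 in the female library and rank 1722 in the male library. Its difference was the largest of the set, at 8.02-fold (7.69 to 8.38). For each of the 3, the counting intervals of the female and the male level did not overlap. Members were named only among unigenes with a log2 ratio of 1 or more in size, so at these fragment counts this was built in.

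**Figure D1:**
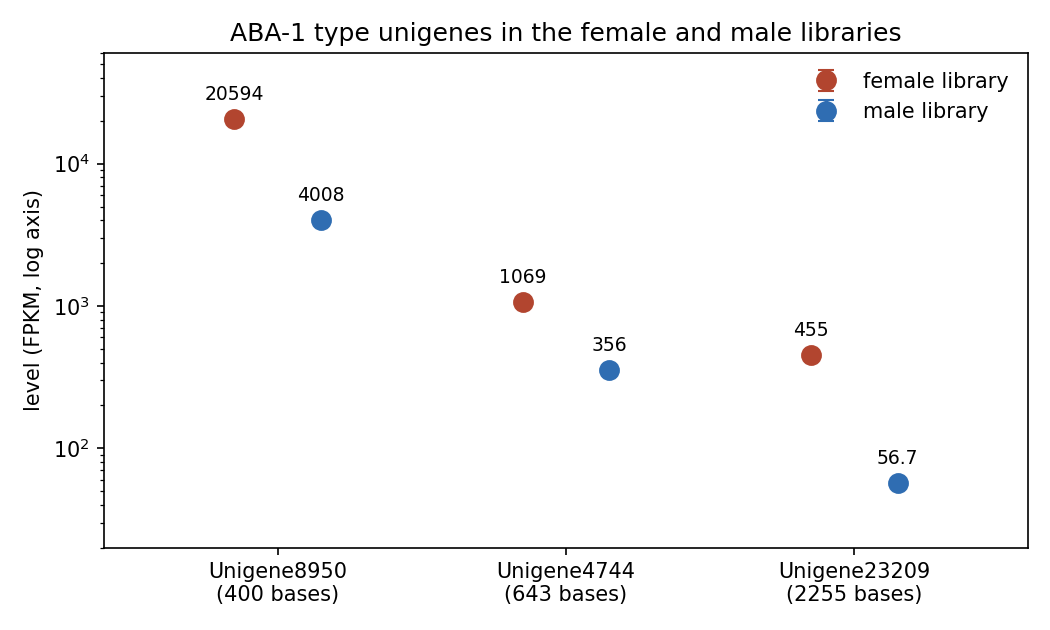
Level of the 3 ABA-1 type unigenes in FPKM on a log axis, with the female library (red) left of the male library (blue) and the number of FPKM above each point. Counting intervals of 95% are drawn and are smaller than the points. Each female point is above its male point, and Unigene8950 is the highest in both libraries at 20594 and 4008 FPKM.

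A size rule asked for 5 FPKM or more in the higher of the libraries and for a 4-fold difference or more after 1 FPKM was added to each level. By it Unigene8950 and Unigene23209 were called toward the female library, while Unigene4744 was not. The same rule called 2.38% of all unigenes higher in the female library. Of the 8589 unigenes with a protein description in the authors' annotated table it called 8.77%. At 2-fold all 3 were called, against 6.81% of all unigenes. Apart from its direction, the 2-fold call was fixed in advance. These counts are bound by how names were given: the authors annotated the 21280 unigenes of their own comparison, whose log2 ratios all had a size of 1 or more, so a copy of this family with a smaller difference would carry no name here. In the authors' deposited table the log2 ratios of female over male were 2.36 for Unigene8950, 1.59 for Unigene4744 and 3.0 for Unigene23209, each with its p-value and FDR listed as 0 by a test that the headers do not name.

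Together the 3 unigenes took 196897 fragments of the female library and 35993 of the male library. That was 0.995% of female fragments and 0.196% of male fragments, a difference of 5.08-fold (5.02 to 5.13). The sum followed Unigene8950, which held 82.8% (82.6 to 82.9%) of the fragments of the set in the female library and 81.8% (81.4 to 82.2%) in the male library. The smaller shares traded places. Unigene23209 held 10.3% (10.2 to 10.4%) of the fragments of the set in the female library and 6.53% (6.27 to 6.79%) in the male library. Unigene4744 held 6.91% (6.80 to 7.02%) in the female library and 11.7% (11.4 to 12.02%) in the male library. By fragments, then, Unigene23209 came before Unigene4744 in the female library and after it in the male library; per length, Unigene4744 was the higher in both.

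The ratio between members does not depend on the library total. Unigene8950 stood at 19.3 times the FPKM of Unigene4744 in the female library and 11.2 times in the male library, so that their sex differences differed by a factor of 1.71 (exact conditional 95% interval 1.65 to 1.78). Unigene23209 stood at 0.426 times the FPKM of Unigene4744 in the female library and 0.159 times in the male library, a factor of 2.67 (2.53 to 2.83). Against Unigene8950 its sex difference was larger by a factor of 1.56 (1.49 to 1.63). No interval included 1, so the 3 folds differed from each other beyond counting error. Unigene8950 and Unigene4744 matched the same TBA-1 mRNA, and the counting could have placed fragments of similar repeat units on either one. Summed, this pair took 176589 female and 33644 male fragments, a difference of 4.87-fold (4.81 to 4.93).

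The direction was the same under each of the other scalings tried. Scaled by the median count ratio of unigenes with at least 10 fragments in both libraries, which lowered each female over male log2 ratio by the same amount (shift of -0.36), the folds were 4.0 for Unigene8950, 2.34 for Unigene4744 and 6.25 for Unigene23209. With the yolk, eggshell and major sperm protein lists left out of the totals (shift of 0.21) they were 5.96, 3.48 and 9.30.

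**Figure D2:**
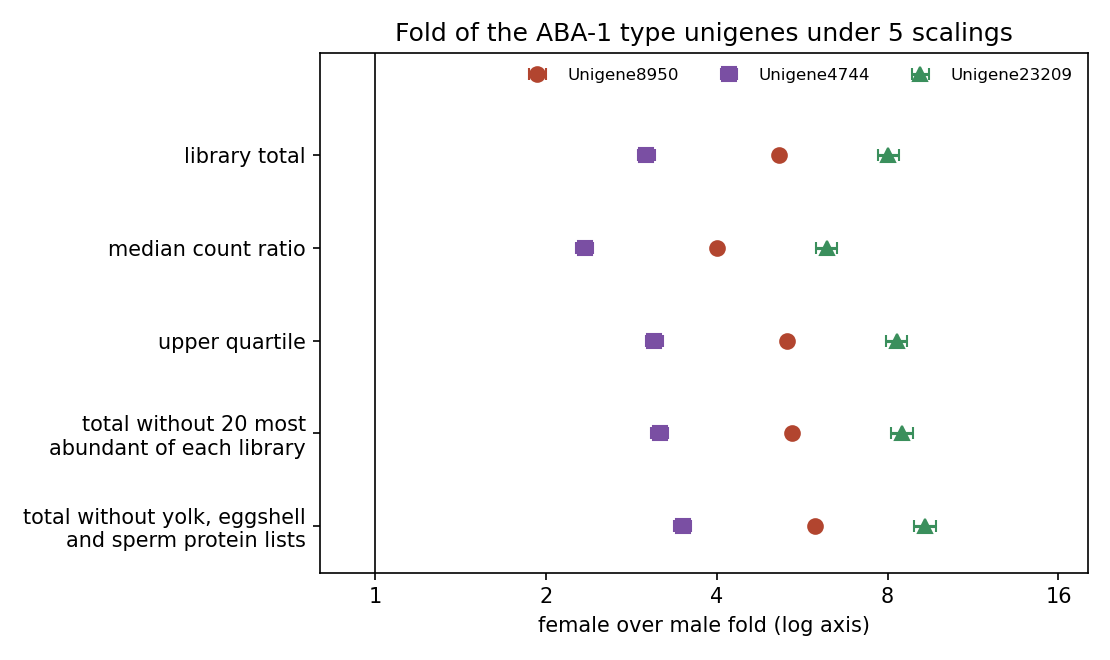
Female over male fold of the 3 ABA-1 type unigenes, on a log axis, under the library total and the other scalings, with 95% counting intervals. Each point is right of the line at 1, with the lowest value of 2.34 for Unigene4744 under the median count ratio. The order Unigene4744, Unigene8950, Unigene23209 is the same in every row by construction, because a scaling multiplies all folds by 1 factor.

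Unigene8950 was next set beside the unigenes with a high level in both libraries. A minimum in each library leaves out unigenes that are high in 1 sex, such as vitellogenin and major sperm protein, so folds near 1 are in part built into this group. Of 94 unigenes with at least 500 FPKM in each library, 49 were higher in the female library and the median fold was 1.01. Apart from Unigene8950 at 5.14-fold, their female over male folds ran between 0.353 and 2.22. With at least 1000 FPKM in each library 30 unigenes were left, 15 of them higher in the female library, and the next largest fold was 1.85. With at least 200 FPKM in each library there were 300 unigenes, 2 of them with a larger fold than Unigene8950. With at least 50 FPKM in each library, a level that all 3 members reached, there were 1044 unigenes with a median fold of 1.13. Among these, the members included, 6 had a larger fold than Unigene23209, 17 a larger fold than Unigene8950 and 33 a larger fold than Unigene4744. These level limits were chosen after the values of the members had been seen.

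**Figure D3:**
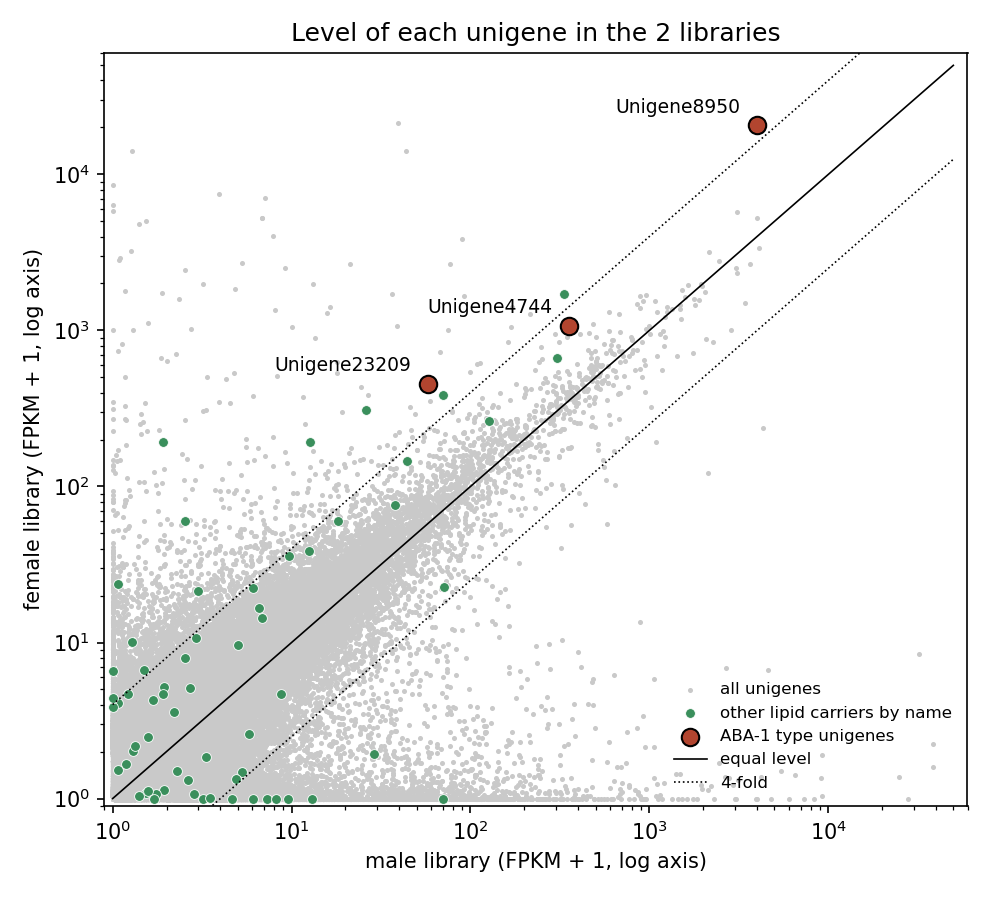
Level of each unigene in the female library against the male library, as FPKM + 1 on log axes, with equal levels as a solid line and 4-fold differences as dotted lines. Grey points are all 70267 unigenes, green points the 63 other lipid carriers found by name, and red points the 3 ABA-1 type unigenes. Unigene8950 lies at the upper right, at 20594 FPKM in the female and 4008 FPKM in the male library.

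Nearness in level was measured as the Euclidean distance over log2(FPKM + 1) in the 2 libraries, among described unigenes. Unigene23209 had the closest neighbours. The nearest was the alpha tubulin Unigene37612, a subunit of microtubules, at a distance of 0.068, with 455 FPKM in the female and 59.5 FPKM in the male library. Next came Unigene2904, described as MDT-28 (distance 0.37), and Unigene8806, an apolipophorin match from the family of large lipid transport proteins (distance 0.38). Nearest to Unigene4744 were Unigene6344, a match to S-methyl-5'-thioadenosine phosphorylase of the methionine salvage pathway (distance 0.23), Unigene14311, a C-type lectin match (distance 0.26), and Unigene9863, whose Swiss-Prot match was an uncharacterized histidine-rich protein (distance 0.32). Unigene8950 had no near neighbour. The closest described unigenes were matches to alanine aminotransferase 2 (Unigene13399), glutamate dehydrogenase (CL2855.Contig3) and an intracellular globin (Unigene11852), at distances of 3.79, 4.39 and 4.64. Each of these was lower in the female library. Over all unigenes, described or not, the closest was Unigene23181 at a distance of 1.88, with 5738 FPKM in the female library and 3101 FPKM in the male library.

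Other lipid carriers were found by name in 63 annotated unigenes of 8 lists, vitellogenins apart. The size rule called 11 of the 63 toward the female and 7 toward the male library. Among the 8589 described unigenes of the annotated table, it called 8.77% toward the female and 15.9% toward the male library. Over the 50 carriers with a mean of at least 1 FPKM the median log2((female FPKM + 1)/(male FPKM + 1)) was 1.32, against 0.93 for the 6259 described unigenes at that level. Of the 50 carriers 34 were higher in the female library, against 56.5% of the 6259; the counts of direction per list below are to be read beside that share. Without the pseudocount and with counts below 3 set to 3 fragments, the median log2 ratio of the 50 carriers was 1.60. No such value was computed for the 6259 unigenes. The 63 unigenes took 0.726% of female fragments and 0.180% of male fragments, in each library less than the 3 ABA-1 type unigenes. None of them had a higher FPKM than Unigene8950 in either library, and 1, an acyl-CoA-binding protein, had a higher FPKM than Unigene4744 in the female library. Unigene23209 was exceeded by 2 carriers in the female and 6 in the male library. In the size of the difference toward the female, on the log2(FPKM + 1) scale, 10 of the 63 exceeded Unigene8950, 22 exceeded Unigene4744 and 5 exceeded Unigene23209.

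The small carriers of fatty acids and acyl-CoA were higher in the female library in each unigene that reached the mean of 1 FPKM. All 6 cytosolic fatty acid-binding unigenes were higher there, 2 of them by the size rule. The most abundant, Unigene4526, matched homolog 5 and stood at 670 FPKM in the female and 303 FPKM in the male library, a fold of 2.21 (2.12 to 2.31). Unigene204, a homolog 3 match, had a female over male fold of 3.28 (2.85 to 3.78), and Unigene14269, an LBP-3 match, one of 10.2 (8.54 to 12.4). The outermost on the log2(FPKM + 1) scale, Unigene41223, had 170 female and 5 male fragments, a ratio of 31.6 (13.3 to 98.4).

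Acyl-CoA-binding proteins showed the same direction in 5 of 5 unigenes, 3 of them by the size rule. Unigene1865 was close to Unigene8950 in the size of its difference, at 1713 FPKM in the female and 331 FPKM in the male library, 5.17-fold higher (4.96 to 5.40). CL5655.Contig1 stood at 309.8 FPKM in the female and 25.01 FPKM in the male library, 12.4-fold higher (10.6 to 14.6). CL5655.Contig2, of the same cluster and so of related sequence, was 38.7-fold higher (25.8 to 60.6). Unigene506, a homolog 1 match, and Unigene5000, an ACBP-3 match, had female over male folds of 3.42 (3.05 to 3.85) and 2.28 (1.82 to 2.88).

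Lipoproteins and their receptors, which move lipid between tissues and into oocytes, had 7 of 8 unigenes higher in the female library, and 3 of them passed the size rule. The apolipophorin match Unigene8806, at 382 FPKM in the female and 69.4 FPKM in the male library, was 5.50-fold higher (5.40 to 5.61). A match to low-density lipoprotein receptor-related protein 2 (Unigene4978) stood at 192 FPKM in the female and 11.7 FPKM in the male library, 16.4-fold higher (15.3 to 17.6). Unigene2470, with a low-density lipoprotein receptor domain, exceeded its male level 214-fold in the female (153 to 309). In the other direction CL5858.Contig1, a further receptor-related match, had 1 female and 337 male fragments, a ratio of 363 toward the male library (64.7 to 14385). Of the yolk precursors themselves, Unigene14425 stood at 14049 FPKM in the female and 0.286 FPKM in the male library, below Unigene8950 in both. Unigene4105, also described as vitellogenin in Nr, stood at 1008 FPKM in the female and 73.6 FPKM in the male library. The other 4 vitellogenin matches with a mean of 1 FPKM or more were called toward the male library, among them Unigene29259, a vitellogenin-2 match in Swiss-Prot described as GH24453 in Nr, with 0 FPKM in the female and 194 FPKM in the male library.

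Carriers of phospholipids and sterols inside cells went both ways. Of 15 phospholipid and ceramide transfer unigenes with a mean of at least 1 FPKM, 7 were higher in the female library and 8 in the male library, with 1 and 4 past the size rule. The SEC14-like CTG-1 match Unigene20520 exceeded its male level 3.36-fold in the female (3.14 to 3.60). For the CTG-2 match Unigene19261 the male level exceeded the female one 3.25-fold (2.98 to 3.55). A phosphatidylinositol transfer protein (Unigene30743) had 0 female fragments and 1326 male fragments. Set against 3 fragments its male level was 476-fold higher, with an exact lower limit of 387. A non-specific lipid transfer protein (Unigene42337) had 61 female and 0 male fragments. Set against 3 fragments its female level was 18.9-fold higher, with an exact lower limit of 14.9. Of 7 sterol transfer unigenes at that level, 3 were higher in the female and 4 in the male library. Contigs of 1 cluster of oxysterol-binding protein 1 stood in opposite directions, CL5264.Contig1 11.3-fold toward the female (7.29 to 18.3) and CL5264.Contig2 2.12-fold toward the male library (1.77 to 2.53).

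Secreted and lysosomal carriers were few. The family of TES-26, a phosphatidylethanolamine-binding antigen that Toxocara larvae secrete, had 3 unigenes, each higher in the female library. The most abundant, CL5947.Contig2, matched the homolog F40A3.3. It stood at 74.7 FPKM in the female and 37.0 FPKM in the male library, 2.02-fold higher (1.85 to 2.21). Only 1 of the 3, CL201.Contig1, passed the size rule. CL201.Contig1 had 374 female fragments and 1 male fragment, a ratio of 347 (61.9 to 13746). Its Nr description was the secreted mucin MUC-2. Saposin-like unigenes were split 3 to 3, with 0 called toward the female and 1 toward the male library by the size rule. The most abundant, Unigene1621, stood at 262 FPKM in the female and 126 FPKM in the male library, 2.08-fold higher (1.98 to 2.19). The fatty acid and retinol binding proteins, a nematode family with the same ligands as ABA-1 and an unrelated sequence, had 1 annotated unigene, CL499.Contig2. It stood at 0.504 FPKM in the female and 1.29 FPKM in the male library, on 43 and 102 fragments, and did not pass the size rule.

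**Figure D4:**
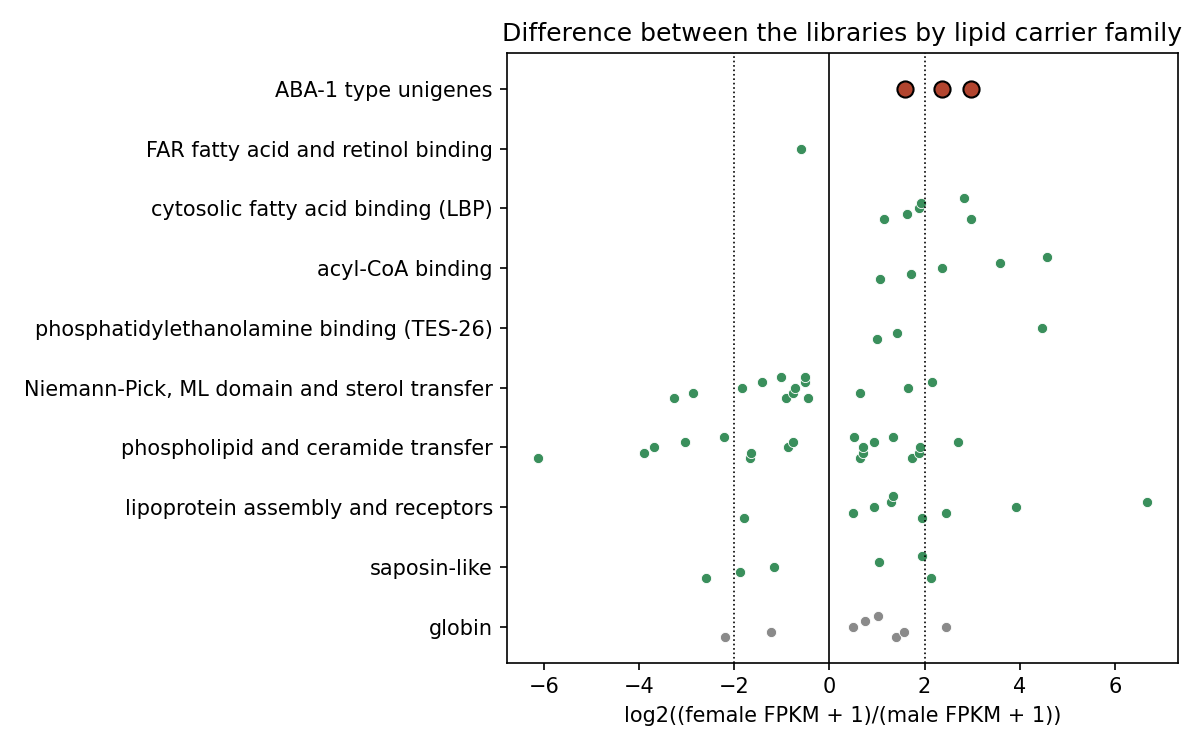
Log2((female FPKM + 1)/(male FPKM + 1)) of the 3 ABA-1 type unigenes (red), of the unigenes of each lipid carrier list (green) and of the globin list (grey), 1 point per unigene, with dotted lines at a 4-fold difference. The ABA-1 type, cytosolic fatty acid-binding and acyl-CoA-binding unigenes are all right of 0, while phospholipid and sterol transfer unigenes lie on both sides. The 1 unigene of the fatty acid and retinol binding list is left of 0, at -0.61.

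Globins, heme proteins found in the same body fluid and in the body wall of ascarids, went both ways. Of 6 with a mean of at least 1 FPKM, 4 were higher in the female and 2 in the male library, with a median log2 value of 0.88; 1 passed the size rule toward the female and 0 toward the male library. The most abundant, the intracellular globin Unigene11852, stood at 885 FPKM in the female and 2073 FPKM in the male library, 2.34-fold higher in the male (2.29 to 2.40). Unigene16410, also described as an intracellular globin, stood at 67.4 FPKM in the female and 11.6 FPKM in the male library, 5.82-fold higher in the female (5.06 to 6.72).

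Transcripts of sex-specific tissues also differed between the libraries, and in whole-body RNA more cells of a type and more RNA per cell cannot be told apart. Eggshell unigenes, 35 of 45 past the size rule toward the female, took 9.56% of female and 0.0602% of male fragments, and vitellogenin matches 8.28% and 0.0869%. Most of the vitellogenin share was that of Unigene14425; as a list, 2 of 6 matches with a mean of 1 FPKM or more were called toward the female and 4 toward the male library, the median log2 value was -4.69, and 9 of all 12 had 0 female fragments. Major sperm protein unigenes, 69 of 91 past the rule toward the male, took 0.00396% of female and 4.58% of male fragments, with 51 of the 91 at 0 female fragments. The muscle list took near equal shares, 0.270% of female and 0.272% of male fragments. Of its 64 unigenes with a mean of 1 FPKM or more, 39 were higher in the female library (median log2 value 1.00). Among the 6259 described unigenes at that level, 56.5% were higher there (median 0.93). In Ascaris the gut is a reported site of ABA-1 synthesis. The intestine list took 0.737% of female and 0.372% of male fragments, but it held trypsin and chymotrypsin inhibitors. Without the inhibitors, left out after the values were seen, its 70 unigenes took 0.208% of female and 0.204% of male fragments. Of 37 of these with a mean of 1 FPKM or more, 25 were higher in the female library (median log2 value 1.16). The size rule called 5 of the 70 toward the female and 8 toward the male library. At 0 female fragments were 15 of the 70, and 0 of them at 0 male fragments. Cuticle and collagen matches took 0.0224% of female and 0.107% of male fragments, although 19 of 35 with a mean of 1 FPKM or more were higher in the female library (median log2 value 0.85). Collagen matches with a helicase as Nr description, such as Unigene10615 at 0.410 FPKM in the female and 240 FPKM in the male library, weighed on the male share. The part of tissue makeup in the levels of the ABA-1 type unigenes was not tested.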

How the data were processed

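Polyadenylated RNA of 1 female and 1 male adult worm was sequenced after random-primed cDNA synthesis and PCR, per the labels' protocols. The assembler, aligner, counting program and search tool are unnamed in the labels and headers (not given in the sources used here). The values deposited by the authors, per the file headers, are raw fragment counts, unigene lengths and FPKM per library; a unigene missing from a library was taken as 0. The deposited FPKM equal count over length and library total to within 5.0e-05. The authors' own table gives a log2 ratio, a p-value, a false discovery rate and the score and expect value of each best database match. No nucleotide or protein sequence was used.

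Folds are ratios of library shares with exact binomial (Clopper-Pearson) 95% intervals. Intervals of levels are exact Poisson intervals, and factors between folds are conditional odds ratios. A fold against 0 is set against 3 fragments, which leaves out the counting error of the other library, and the exact lower limit is given beside it. Intervals and limits cover counting error only. The size rule took unigenes with 5 FPKM or more in either library whose log2((female FPKM + 1)/(male FPKM + 1)) was 2 or more in size, a scale that understates low unigenes.

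The 15 gene lists were name patterns in Nr and Swiss-Prot descriptions without organism names. Named unigenes were the 3 members, the 3 nearest to each in level, and of each list the 3 highest in mean FPKM and the outermost with a mean of at least 1 FPKM; those the text describes are part of them. Unigene41224 and Unigene23181 were named after their values were seen. The members and lists were chosen with earlier results of these data known. The calculations were checked on simulated counts and used SciPy 1.17.1 with NumPy 2.4.6, pandas 2.3.3, and for the figures matplotlib 3.10.9, under Python 3.11.15.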

Additional observations from a re-analysis of the deposited data

How the results depend on the processing

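With 1 library per sex no replicate could be left out. No paired analysis was possible because each sex has 1 library and no test was run. Each of the 3 folds kept its direction under the 6 alternatives tried. The pseudocount and the deposited FPKM could not have reversed it. The scalings multiplied each fold by 0.779 to 1.16, too little to bring a 3.0-fold difference to 1. For Unigene8950 the fold of 5.14 was 4.0 with the median count ratio, 5.32 with the upper quartile, 5.43 without the 20 most abundant unigenes of each library and 5.96 without the yolk, eggshell and sperm protein lists, where 4.0 is at the edge of the 4-fold rule. For Unigene4744 the fold of 3.0 was 2.34 with the median count ratio, 3.17 without the 20 most abundant and 3.48 without the lists, and for Unigene23209 the fold of 8.02 was 6.25, 8.48 and 9.30 under the same. The upper quartile moved the folds of Unigene4744 and Unigene23209 by less than their counting intervals, as did a pseudocount of 1 FPKM and the deposited FPKM for all 3. A scaling multiplies all folds by 1 factor, so the order of the members is fixed by construction. Of the lipid carriers, the size rule called 11 toward the female, or 22 at 2-fold, and 7 toward the male library, or 3 with a minimum of 10 FPKM. In the other alternatives these counts ran between 8 and 15 for the female and between 5 and 8 for the male library. Depth does not limit the members, each of which had 2349 fragments or more per library; the lack of a second worm of each sex does.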

Other observations

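The Swiss-Prot score exceeded the Nr score for Unigene4744 (1.82 times) and Unigene23209 (4.73 times), although both columns list best matches. Of 6541 unigenes in the authors' deposited table with both scores, 1022 (15.6%) showed this, 177 of them with a larger ratio than Unigene23209. The cause was not tested.

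In the reference gene table of the assembly Toxocara_canis_adult_r1.0, 2 genes carry the symbol ABA-1 and 2 the symbol DVA-1, the name of the family in the lungworm Dictyocaulus. The 3 unigenes were not assigned to these genes here.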
